A study of Mus musculus with 2 samples.

Results

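The circadian clock genes described here are Arntl, Clock, Per1, Per2, Per3, Cry1, Cry2, Dbp, Nr1d1 and Nr1d2, chosen by name as the core of the mammalian clock. Values were available for 9 of these 10 genes among 20722 gene symbols, and Per1 was not analysed here. Each gene was represented by its RefSeq transcript with the highest mean. The assay was mRNA sequencing of villi isolated from mouse small intestine, with 1 library for each genotype. The first genotype was Rosa26-CreERT2 Cdkn2a-/- Ring1a-/- Ring1bf/f, labelled a double knockout (dKO). The control was Rosa26-CreERT2 Cdkn2a-/-. Both were on the C57BL/6 strain, both lacked the cell cycle inhibitor gene Cdkn2a, and both carried a tamoxifen-inducible Cre recombinase at the Rosa26 locus, which is broadly active and not limited to the epithelium. Both received 3 tamoxifen injections, with tissue taken 6 days later. The labels give neither the age of the mice nor the hour of collection, so genotype and hour of collection cannot be told apart. Ring1a (Ring1) and Ring1b (Rnf2) are the ubiquitin ligases of Polycomb repressive complex 1.

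The mammalian clock is a transcriptional loop. CLOCK and BMAL1, the product of Arntl, bind E-boxes together and activate the Per, Cry, Nr1d and Dbp genes, whose transcripts peak in the repressor phase of the cycle. PER and CRY proteins then inhibit CLOCK and BMAL1, while the nuclear receptors NR1D1 and NR1D2 (REV-ERB alpha and beta) repress Arntl through elements that ROR receptors use for activation. DBP carries the rhythm to genes with D-boxes. Enterocytes have such a clock, and several nutrient transporters of the intestine are rhythmic in rodents.

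The dKO-labelled library held 1058196 reads and the control library 775827, as recovered from the deposited values. With 1 library per genotype no difference has a replicate check and no test between genotypes was possible. Intervals are 95% exact intervals that cover counting error only. Folds are ratios of reads divided by the ratio of the authors' size factors (1.11). Ring1 had 10 reads in the dKO-labelled library and 10 in the control, and Rnf2 had 82 and 59, ratios of 0.901 (0.337 to 2.41) and 1.25 (0.886 to 1.78). Neither was lower beyond counting error, and since whole-transcript counts cannot show the loss of single exons, the genotype is given as labelled. All 12 villus enterocyte markers examined reached a mean of at least 20 normalised counts, the limit at which a gene was counted as measured, and the disaccharidase genes Sis (357 reads in the dKO-labelled library and 37 in the control, 8.70-fold, 6.19 to 12.6) and Lct (847 and 184 reads, 4.15-fold, 3.53 to 4.89) were over 2-fold higher, with the other 10 within 2-fold. Fibroblast and smooth muscle markers had 403 reads in the dKO-labelled library and 82 in the control over 11 genes, a fold of 4.43 (3.49 to 5.69). Of these, 6 of 7 measured were at least 2-fold higher, as were 26.2% of all 6001 measured genes. Among the 6, Col1a1, Col1a2, Col3a1, Acta2 and Des were under 20 normalised counts in the control. They passed the limit through the dKO-labelled library alone and had to be higher, so the limit in part sets this count. The fibroblast gene Dcn, with 2 transcripts in the data, had 0 reads in both libraries. How reads shared between transcripts were counted is not given. Endothelial markers had 48 reads in the dKO-labelled library and 52 in the control (0.832, 0.550 to 1.26). Of these, the vascular receptor gene Tie1 had 5 and 48. The other endothelial genes with values had more reads in the dKO-labelled library, all under the limit of 20 normalised counts. They were Lyve1 (19 and 1), Plvap (13 and 3), Vwf (10 and 0) and Cdh5 (1 and 0), so the pooled ratio turned on Tie1. Enteric neuron and glia markers had 21 and 35 reads (0.541, 0.299 to 0.955), of which the neurotrophic receptor gene Ret had 17 and 33. Immune cell markers had 81 and 54 reads (1.35, 0.947 to 1.94). Xist had 1 read and 80 reads, and the Y-linked gene Ddx3y 131 and 0, so the sex of the animals also cannot be told apart from the genotype label. The part of the marker differences and of sex in the clock gene values was not tested, and in whole tissue a change in RNA per cell cannot be told apart from a change in cell composition.

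The clock genes did not move together. Nr1d1, Cry2 and Nr1d2 had more scaled reads in the dKO-labelled library, Clock had moderately more, Cry1 was level at the deposited size factors, and Per2 had fewer. Arntl, Per3 and Dbp were near the limit of detection in both libraries. The limit of 20 normalised counts was reached by 6 of the 9 clock genes. Per2 lay just inside this limit with a mean of 20.2, and Per3 was the nearest outside it with 3.63. By size, 3 of the 6 measured clock genes were called higher at 2-fold in the dKO-labelled library and 0 were called lower, judged on log2((dKO + 1)/(control + 1)) of the normalised counts. The same calls covered 26.2% (higher) and 4.18% (lower) of 6001 measured genes. The median log2 ratio of the 6 genes was 1.04, with a range from -0.70 to 2.66, against a median of 0.51 for all measured genes. A gene that passes the limit through its higher library alone has to differ. This held for Cry2, with 59.8 normalised counts in the dKO-labelled library and 10.5 in the control, and for Per2, with 15.2 and 25.3. The numbers called higher and lower thus describe the 6 genes and no more.

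**Figure D1:**
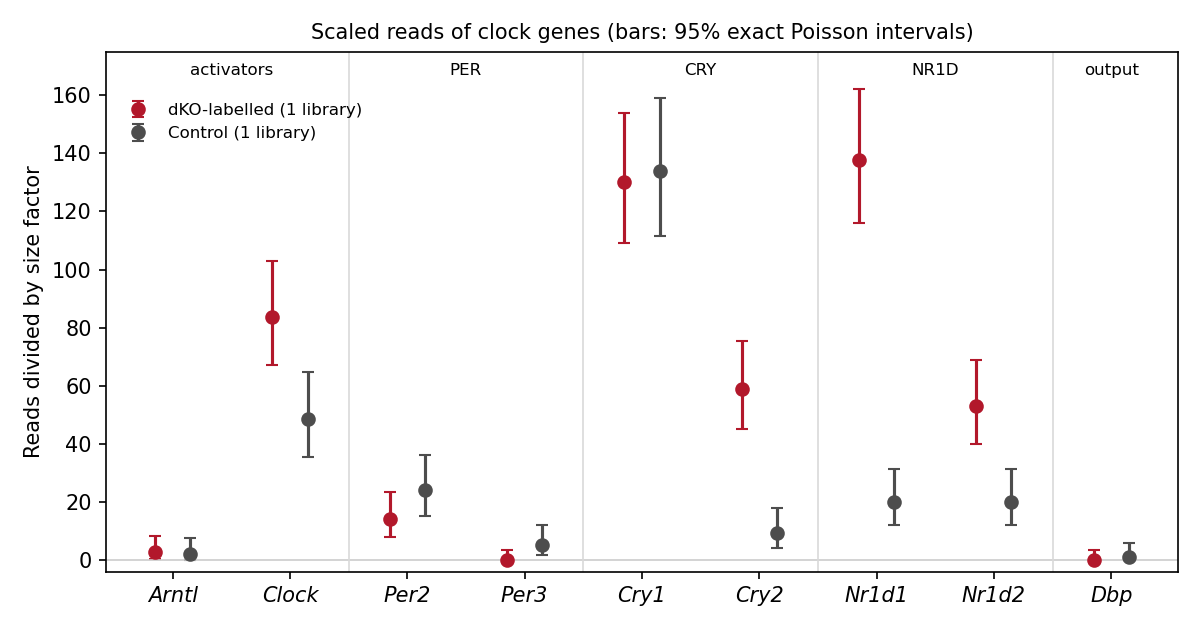
Reads divided by the authors' size factor for 9 clock genes, grouped by role, with 1 point per library (dKO-labelled left, control right) and 95% exact Poisson intervals. The intervals of Nr1d1, Cry2, Nr1d2 and Clock do not overlap between the libraries, Cry1 is level, and Arntl, Per3 and Dbp lie close to 0.

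The NR1D repressors were higher in the dKO-labelled library, Nr1d1 more than Nr1d2. Nr1d1 (NM_145434), the heme-binding receptor that represses Arntl, had 145 reads in the dKO-labelled library and 19 in the control. Its ratio was 6.88 (4.25 to 11.8), and 122 of 6001 measured genes (2.03%) had a log2 ratio at least as high, Nr1d1 included. Nr1d2 (NM_011584), its partly redundant paralog, had 56 and 19 reads, a ratio of 2.66 (1.55 to 4.73), and 15.9% of measured genes had a log2 ratio at least as high. The Poisson intervals of the libraries did not overlap for either gene. Differences beyond counting error were common, as an exact binomial test on the reads called 50.2% of measured genes higher and 11.6% lower. Relative to Nr1d2 in the same library, Nr1d1 had 2.59 reads per read in the dKO-labelled library and 1.00 in the control, a ratio of ratios of 2.59 (1.20 to 5.57) that no scaling between libraries can alter.

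Nr1d1 lies tail to tail with the thyroid hormone receptor gene Thra on the opposite strand. In GENCODE M21 their exons share 263 bases, or 9.67% of the Nr1d1 transcript. Thra (NM_178060) had 88 reads in the dKO-labelled library and 17 in the control, a ratio of 4.67 (2.76 to 8.37), so it differed in the same direction as Nr1d1. The library kit does not mark strand and the counting rule was not stated in the labels, so reads of the shared stretch cannot be assigned to either gene. How far these reads contribute to the Nr1d1 value was not tested. Nr1d2 shares no exon with another gene in that annotation.

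The cryptochromes, which inhibit CLOCK and BMAL1 directly, differed from each other. Cry2 (NM_009963) had 62 reads in the dKO-labelled library and 9 in the control, a ratio of 6.21 (3.07 to 14.2), and 2.85% of measured genes had a log2 ratio at least as high. Cry1 (NM_007771) had 137 and 127 reads, a ratio of 0.972 (0.758 to 1.25), and 76.9% of measured genes had a log2 ratio at least as high. The libraries were apart beyond counting error for Cry2 and overlapped for Cry1. By the exact binomial test 50.2% of measured genes were higher and 11.6% lower. Cry2 reads per Cry1 read numbered 0.453 in the dKO-labelled library and 0.0709 in the control, a ratio of ratios of 6.39 (2.98 to 15.2). A 2nd Cry2 transcript, NM_001113333, had 0 reads in both. A gene on the strand opposite Cry2, D930015M05Rik, shares 149 exon bases with it in GENCODE M21 and had 1 read and 0 reads.

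The Period genes did not follow Nr1d1 or Cry2. Per2 (NM_011066), which carries CRY into the repressive complex, had 15 reads in the dKO-labelled library and 23 in the control. The ratio was 0.588 (0.285 to 1.18), which includes 1 at the deposited size factors, and 7.17% of measured genes had a log2 ratio as low or lower. With 15.2 and 25.3 normalised counts, Per2 passed the limit of 20 through the control library alone. Per3 (NM_011067), a Period gene that is dispensable for core rhythms in mice, had 0 reads in the dKO-labelled library and 5 in the control. Taking 3 reads as the floor for the dKO-labelled library and the 5 control reads as exact, Per3 was 1.85-fold lower. The counting interval of the 5 control reads against 0 reaches down to 1.02-fold lower, so 1.85 is not a minimum. Relative to Per2, Nr1d1 had 9.67 reads per read in the dKO-labelled library and 0.826 in the control, a ratio of ratios of 11.7 (4.84 to 28.4). Cry2 relative to Per2 gave 10.6 (3.71 to 31.0) and Nr1d2 relative to Per2 4.52 (1.82 to 11.3). These pairs were chosen after their values were seen.

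The activators were led by Clock (NM_007715), the DNA-binding partner of BMAL1, with 88 reads in the dKO-labelled library and 46 in the control. The ratio was 1.72 (1.19 to 2.52), within 2-fold, and 37.1% of measured genes had a log2 ratio at least as high. Arntl (NM_007489), the one activator without which the clock stops in mice, had 3 reads and 2 reads, at or under the floor in both, and no fold is given. Dbp (NM_016974), a D-box activator and one of the most rhythmic transcripts of peripheral tissues, had 0 reads and 1 read. A count of 0 among 1058196 reads allows up to 3 reads, or 2.84 RPM (reads scaled to library size), and the same floor in the control library was 3.87 RPM. Differences in Arntl and Dbp were therefore not detectable at this depth. Dbp also shares 539 exon bases, 29.3% of its transcript, with Sphk2 on the opposite strand, which itself had 9 reads and 4 reads.

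**Figure D2:**
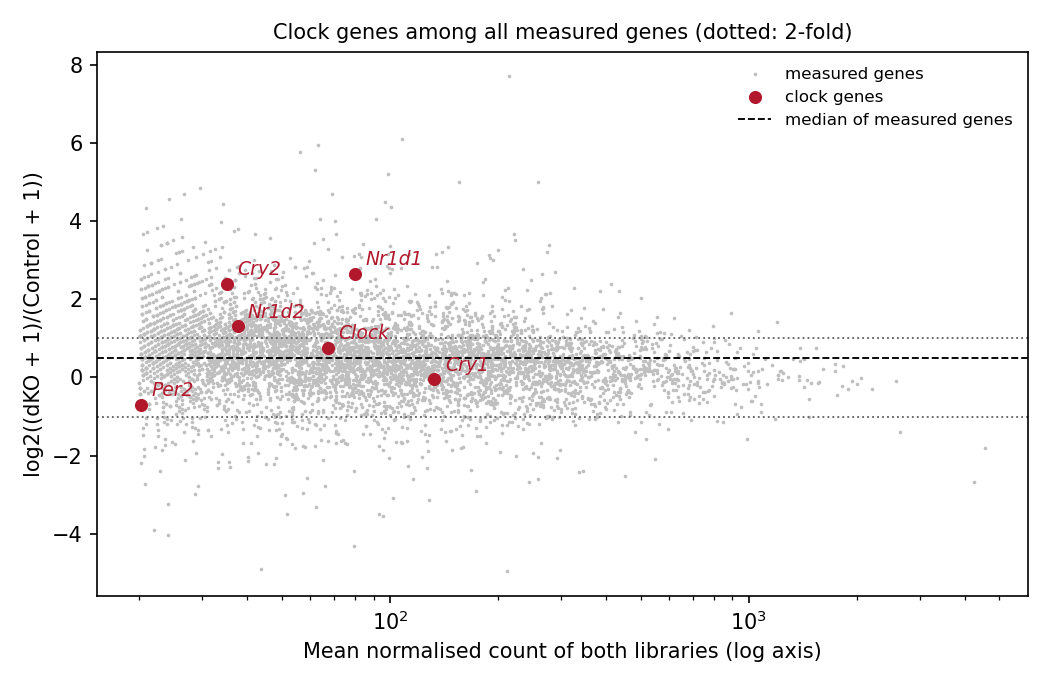
The log2((dKO + 1)/(control + 1)) of normalised counts against the mean count of both libraries (log axis) for 6001 measured genes in grey, with the 6 measured clock genes in red. The dashed line is the median of measured genes (0.51) and the dotted lines mark 2-fold. Nr1d1 and Cry2 lie near the upper edge, Nr1d2 closer to the bulk, Clock and Cry1 within it, and Per2 towards the lower edge.

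The promoter windows of the 3 genes called higher are shown with that of Cry1, the level paralog of Cry2, because E-boxes and ROR elements are the control elements of the loop. They come from RefSeq (GRCm38.p6), where 9 of the 10 genes have at least 1 window, with 250 bases before the transcription start and 50 after it. Windows were searched on both strands for 4 motifs. The E-box was searched as CACGTG, which reads alike on both strands. The E'-box was searched as CACGTT and, for the opposite strand, as AACGTG. The D-box, bound by DBP, was searched as TTATGTAA and, for the opposite strand, as TTACATAA. The half-site of ROR and NR1D receptors was searched as AGGTCA and, for the opposite strand, as TGACCT. Matches are in capitals in the windows shown, where none overlap.
Nr1d1, minus strand of chr11:98775328-98775627: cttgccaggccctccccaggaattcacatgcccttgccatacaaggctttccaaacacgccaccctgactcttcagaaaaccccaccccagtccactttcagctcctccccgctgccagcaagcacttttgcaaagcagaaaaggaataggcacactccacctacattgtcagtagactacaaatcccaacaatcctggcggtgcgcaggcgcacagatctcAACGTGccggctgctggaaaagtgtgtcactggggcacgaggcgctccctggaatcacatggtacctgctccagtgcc
Nr1d2, minus strand of chr14:18239057-18239356: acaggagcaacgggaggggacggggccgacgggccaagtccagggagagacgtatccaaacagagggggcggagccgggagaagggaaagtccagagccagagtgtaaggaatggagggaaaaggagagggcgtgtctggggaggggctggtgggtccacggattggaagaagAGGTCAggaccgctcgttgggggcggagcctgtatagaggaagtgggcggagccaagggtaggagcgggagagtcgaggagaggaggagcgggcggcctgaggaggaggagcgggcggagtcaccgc
Cry2, minus strand of chr2:92434020-92434319: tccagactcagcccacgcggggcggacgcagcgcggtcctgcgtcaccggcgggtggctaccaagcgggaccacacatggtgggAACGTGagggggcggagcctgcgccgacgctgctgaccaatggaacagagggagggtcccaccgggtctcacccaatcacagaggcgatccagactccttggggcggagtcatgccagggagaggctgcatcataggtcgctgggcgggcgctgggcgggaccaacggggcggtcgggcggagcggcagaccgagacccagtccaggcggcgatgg
Cry1, minus strand of chr10:85185005-85185304: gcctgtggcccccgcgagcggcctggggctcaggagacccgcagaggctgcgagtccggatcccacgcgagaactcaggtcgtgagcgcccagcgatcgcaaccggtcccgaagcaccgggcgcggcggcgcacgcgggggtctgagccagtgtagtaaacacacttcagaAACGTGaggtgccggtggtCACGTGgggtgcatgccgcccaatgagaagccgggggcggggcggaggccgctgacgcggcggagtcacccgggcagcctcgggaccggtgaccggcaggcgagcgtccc

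The E-box was in the Cry1 window, starting 60 bases before the transcription start, and in 1 of the Per1 windows. It was in 7.15% of 32851 windows of all genes. The Nr1d1, Cry2 and Cry1 windows each held 1 E'-box, starting 28, 166 and 79 bases before the transcription start, against 4.68% of all windows. Nr1d2 held 1 half-site 77 bases before its start, and half-sites were also in a window each of Arntl, Clock and Per1, against 16.3% of all windows. Per3 held 2 copies of the D-box, at 205 and 158 bases before the start, where 0.938% of all windows held any. The 3 genes that were higher thus shared no one of these motifs in their windows. A match describes letters in a short window, and no match says nothing of sites elsewhere.

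Activator-phase genes (Arntl and Clock) were next set against repressor-phase genes (Per2, Per3, Cry1, Cry2, Dbp, Nr1d1 and Nr1d2). A contrast between genes of the same libraries does not depend on scaling. Repressor-phase genes had 415 reads in the dKO-labelled library and 203 in the control, and activator-phase genes 91 and 48. Repressor-phase reads per activator-phase read were thus 4.56 and 4.23, a ratio of ratios of 1.08 (0.715 to 1.61). The sets did not separate beyond counting error when pooled. Within the repressor-phase set Cry1 held 33.0% of reads in the dKO-labelled library and 62.6% in the control. Cry1 peaks later than the other repressor-phase genes in mouse tissues. With Cry1 counted among the activator-phase genes, the ratio of ratios was 2.81 (2.01 to 3.93), so the pooled comparison turned on the placing of that gene. Over measured genes the median log2 ratio was 0.76 for the activator-phase set, which is Clock alone, and 1.32 for the repressor-phase set (5 genes, from -0.70 to 2.66). The difference of medians was -0.56, and it was 0.52 when the genes under the limit were included, since Per3 and Dbp had 0 reads in the dKO-labelled library.

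Against Clock, the one measured activator, each repressor-phase gene gave its own value. Nr1d1 reads per Clock read were 3.99-fold higher in the dKO-labelled library (2.12 to 7.66) and Cry2 reads per Clock read 3.60-fold higher (1.58 to 8.94). For Nr1d2 the ratio of ratios was 1.54 (0.789 to 3.08), an interval that includes 1. For Cry1 it was 0.564 (0.357 to 0.885) and for Per2 0.341 (0.151 to 0.762). The repressor-phase genes thus lay on both sides of Clock.

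Levels were compared between genes as scaled reads per kilobase of transcript, with transcript lengths from GENCODE M21. In the dKO-labelled library the order was Nr1d1 (50.6), Cry1 (43.0), Cry2 (14.8), Nr1d2 (11.4), Clock (11.2), Per2 (2.44) and Arntl (0.979), with Per3 and Dbp at 0 reads. In the control it was Cry1 (44.2), Nr1d1 (7.35), Clock (6.48), Nr1d2 (4.29), Per2 (4.15), Cry2 (2.38), Per3 (0.878), Arntl (0.724) and Dbp (0.573). Cry1 stood alone at the top in the control, with an interval from 36.9 to 52.6 that no other gene reached. In the dKO-labelled library the intervals of Nr1d1 (42.7 to 59.5) and Cry1 (36.1 to 50.8) overlapped. Cry2, Nr1d2 and Clock overlapped one another there, and in the control Nr1d1, Clock, Nr1d2 and Per2 did so.

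Other genes of the clock pathway were taken by role. Of 31 genes listed by role, 25 had values and 12 were measured. By the 2-fold rule 2 of the 12 were higher in the dKO-labelled library and 1 was lower, beside 26.2% and 4.18% of all measured genes, with a median log2 ratio of 0.57 against 0.51 for all measured genes. Npas2, which can replace CLOCK as the partner of BMAL1, had 268 reads in the dKO-labelled library and 124 in the control, a ratio of 1.95 (1.57 to 2.43). It did not reach the 2-fold limit.

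Among the other repressors, Nfil3, which competes with DBP at D-boxes, had 41 reads in the dKO-labelled library and 10 in the control, a ratio of 3.70 (1.82 to 8.27). Bhlhe40, an E-box repressor, had 325 and 253 reads (1.16, 0.979 to 1.37). Ciart, a repressor of CLOCK and BMAL1, had 3 reads and 2 reads. The D-box factors Tef and Hlf were close to undetected, with 0 reads and 1 read for Tef and 4 reads and 0 reads for Hlf. Low counts were thus common to all PAR bZIP genes of the clock, Dbp included.

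Genes for subunits of the kinases that phosphorylate clock proteins lay close to the median of all measured genes (0.51). All 4 measured genes had log2 ratios from 0.43 to 0.66, with 0 past 2-fold, where 26.2% of measured genes were higher and 4.18% lower by that rule. Gsk3b, a glycogen synthase kinase, had 159 reads in the dKO-labelled library and 106 in the control (1.35, 1.05 to 1.75). The casein kinase 2 genes Csnk2a1 (343 and 204 reads, 1.52, 1.27 to 1.81) and Csnk2b (289 and 179 reads, 1.46, 1.20 to 1.76) were also above 1 beyond counting error. Csnk1e, a casein kinase that marks PER for degradation, had 33 reads in the dKO-labelled library and 18 in the control (1.65, 0.904 to 3.12), an interval that includes 1. Of the cofactors, Wdr5, a PER-associated histone methylation factor, had 66 and 25 reads (2.38, 1.48 to 3.94). Hdac3, the deacetylase that NR1D1 recruits, had 132 and 70 reads (1.70, 1.26 to 2.30).

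The largest difference among clock output genes ran the other way. Noct (listed as Ccrn4l), which encodes nocturnin, a rhythmic NADP(H) phosphatase linked to dietary fat absorption in mice, had 219 reads in the dKO-labelled library and 841 in the control. It was 4.26-fold lower (3.67 to 4.97), and 0.717% of measured genes had a log2 ratio as low or lower. Wee1, a kinase gene with E-box control, had 42 and 26 reads (1.46, 0.872 to 2.47), and Nampt, the rhythmic enzyme of NAD salvage, 123 and 104 (1.07, 0.814 to 1.40). Usp2 had 0 reads in both.

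**Figure D3:**
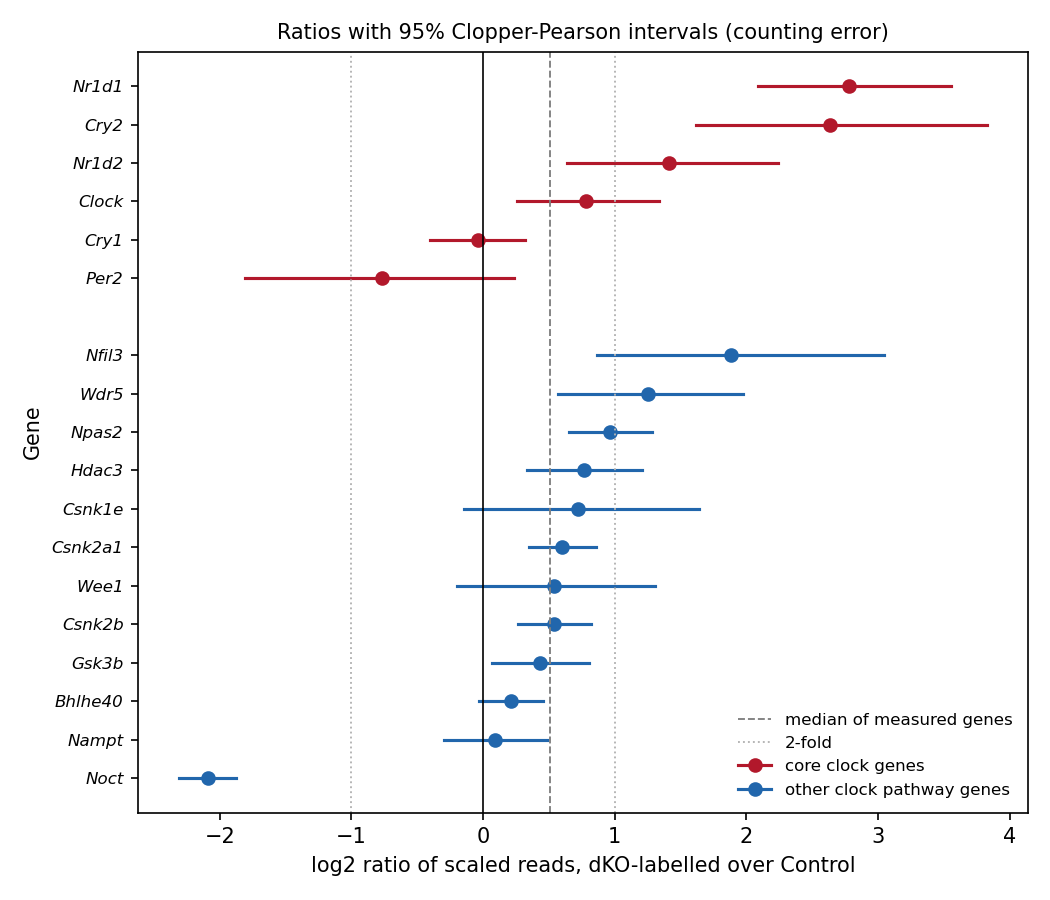
The log2 ratio of scaled reads, dKO-labelled over control, for 6 measured clock genes (red, upper block) and 12 other measured clock pathway genes (blue, lower block), with 95% Clopper-Pearson intervals. The solid line marks no difference, the dashed line the median of measured genes (0.51), and the dotted lines 2-fold. Nr1d1 and Cry2 lie furthest to its right, and Noct lies furthest to the left.

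Genes of absorption that are rhythmic in rodent intestine were mixed. By the 2-fold rule 2 of 7 measured genes were higher and 1 was lower, beside 26.2% and 4.18% of all measured genes, and their median log2 ratio was 0.22 against 0.51. The drug exporter gene Abcb1a had 134 reads in the dKO-labelled library and 33 in the control (3.66, 2.49 to 5.53). The glucose transporter gene Slc2a2 had 62 and 16 (3.49, 1.99 to 6.48). With 59.8 and 17.9 normalised counts, Slc2a2 passed the limit of 20 through the dKO-labelled library alone. Apob, the structural protein of chylomicrons, had 2133 and 6742 reads and was 3.51-fold lower (3.34 to 3.68). Mttp, also on this list, lay just under the limit with a mean of 18.4 and had 10 and 24 reads (0.376, 0.160 to 0.815). Slc15a1, the peptide transporter gene, had 380 and 424 reads (0.808, 0.702 to 0.930). Among glucocorticoid-induced genes, listed because glucocorticoids entrain peripheral clocks, 2 of 6 were measured. The FK506-binding protein gene Fkbp5 had 73 reads and 20 reads (3.29, 1.98 to 5.70), and the stress gene Ddit4 60 and 105 (0.515, 0.369 to 0.714).

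Another scaling between libraries shifts all 6 measured clock genes alike, and the 2-fold call changed with it for Nr1d2 and Per2. Relative to the median of measured genes, Nr1d1 and Cry2 remained over 2-fold higher (log2 differences of 2.15 and 1.89), as 11.8% of measured genes were. Nr1d2 was then within 2-fold, with a log2 difference of 0.81. Per2 was over 2-fold lower, with a log2 difference of -1.21, where 10.4% of measured genes were at least 2-fold lower. Cry2 and Per2 each passed the limit for measured genes through their higher library alone, so these shares are no test of either gene. As ratios of reads divided by the median fold of 1.42, Nr1d2 was at 1.87 (1.09 to 3.33) and Per2 at 0.414 (0.201 to 0.828), so that on this scale the Per2 interval does not include 1. Clock and Cry1 stayed within 2-fold on either scale, with log2 differences of 0.25 and -0.55 relative to the median. Their read ratios over the median fold were 1.21 (0.840 to 1.77) for Clock, which now includes 1, and 0.684 (0.534 to 0.878) for Cry1, which no longer does. The intervals leave out the error of the median itself. Of the other pathway genes, Nfil3 stayed over 2-fold higher (1.19), Wdr5 did not (0.68), and Noct was lower by more (-2.59).

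**Figure D4:**
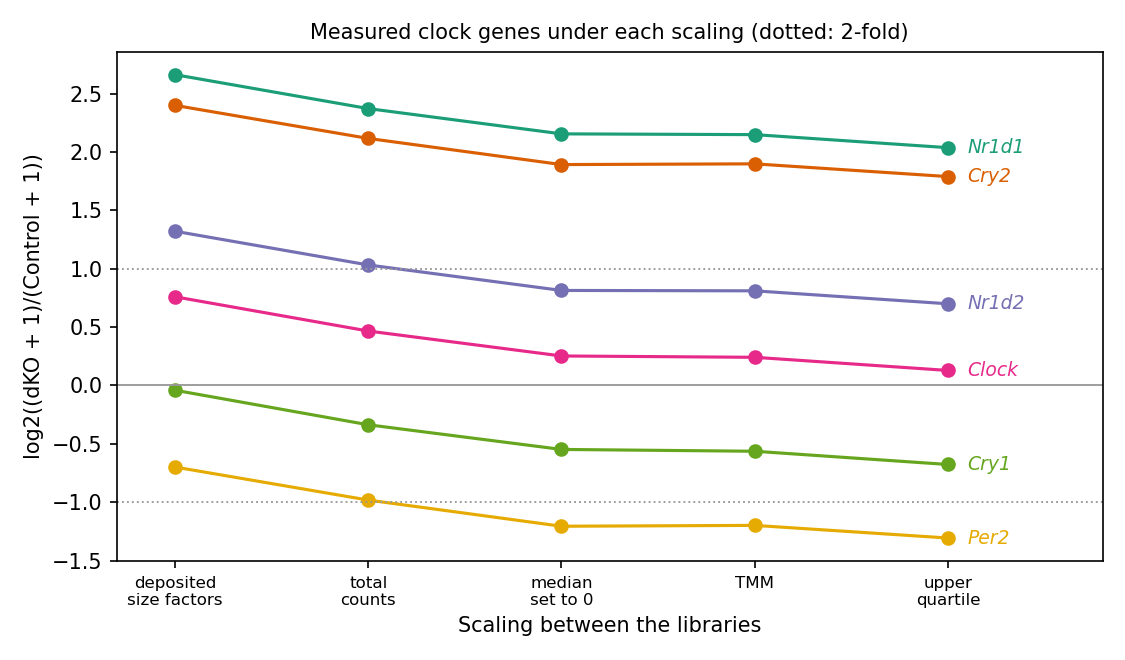
The log2((dKO + 1)/(control + 1)) of the 6 measured clock genes under 5 scalings between the libraries, with dotted lines at 2-fold. The lines run in parallel. Nr1d1 and Cry2 stay above 2-fold under each scaling, Nr1d2 crosses below the upper line, and Per2 crosses the lower line.

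In the authors' deposited table, 0 of the 9 clock genes had an unadjusted DESeq p-value under 0.05, as 123 of 22040 transcripts did. The lowest of the clock genes in the authors' deposited table were 0.0627 for Nr1d1 and 0.109 for Cry2, followed by 0.361 for Nr1d2. With 1 library per genotype these values rest on no measured spread between animals. An exact binomial test on the recovered reads, which compares the 2 libraries and not the genotypes, called 4 of the 6 measured clock genes higher in the dKO-labelled library (Nr1d1, Cry2, Nr1d2 and Clock) and 0 lower, where it called 50.2% of all measured genes higher and 11.6% lower.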

How the data were processed

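One table of the whole series was used, with 22040 RefSeq transcripts and 1 library per genotype. Per the labels, villi were purified from the small intestine and the TruSeq RNA v2 kit served for library preparation. The submitters' processing notes name TopHat, DESeq and the build mm9, without versions. How reads were counted, and how strand and duplicates were treated, is not given in the sources used here. Per the file headers, the signal columns hold normalised counts (DESeq base means). In 100% of rows the values were whole multiples of their column's minimum (tolerance 0.001 of a step) and none was 0, so reads were recovered as steps minus 1. That 1 read had been added is an inference from the values. The authors' fold column is the ratio of these signals and their log2 column its logarithm. The authors' p-values come from DESeq and are unadjusted.

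For 1171 symbols with several rows the row with the highest mean was kept. Of these, 14.5% were measured, against 29.8% of symbols with 1 row. Identifiers matched RefSeq (GRCm38.p6) in 98.5% of rows, used for names alone. Genes with a mean of 20 or more counted as measured and were called by size at 2-fold on log2((dKO + 1)/(control + 1)), without a test, a scale that understates changes of low genes. Folds are read ratios over the size factor ratio with 95% Clopper-Pearson intervals, ratios of ratios have exact conditional intervals, and 3 reads served as the floor for a library with 0 reads. All of these cover counting error only. The clock genes, the lists and the calls were chosen with earlier results of these data known. Named genes were all clock genes and measured genes of the pathway lists. Near-zero members of these lists, genes of the absorption and glucocorticoid lists and opposite-strand genes were named beside the result they touch, after their values were seen. Some genes of the pathway are not reported here. Genes of like pattern were not sought, since 2 libraries give 1 ratio per gene. Alternatives were other scalings, pseudocount 5, other limits and summed rows. An exact binomial test on the recovered reads, with Benjamini-Hochberg adjustment at 0.05, and wider gene sets were added after seeing the data. The test compares the libraries, not the conditions. Functions were tested on simulated data. Software was R 4.3.3 with edgeR 4.0.16 (TMM) and Python 3.11.15 with scipy 1.17.1, numpy 2.4.6, pandas 2.3.3 and, for plots, matplotlib 3.10.9.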

Additional observations from a re-analysis of the deposited data

How the results depend on the processing

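No paired analysis was possible because each genotype had 1 library, and for the same reason no replicate could be left out. Clock genes at least 2-fold higher numbered 3 with total counts, pseudocount 5, summed rows and no filter, 2 with the upper quartile, TMM and the median set to 0, and 0 at a mean of at least 100. Those at least 2-fold lower numbered 0, but 1 with the upper quartile, TMM and the median set to 0 (Per2) and 1 with no filter (Per3). Other pathway genes higher numbered 2, but 1 under each of the 4 other scalings, 0 at a mean of at least 100, 3 with no filter and 7 by the binomial test, which called 4 clock genes higher (Clock with Nr1d1, Nr1d2 and Cry2) and 0 lower. All measured genes higher and lower numbered 1574 and 251, but total counts gave 1009 and 424, upper-quartile scaling 592 and 787, TMM 709 and 642, a median set to 0 gave 711 and 626, no filter 3704 and 892, a limit of 100 gave 358 and 104, and the binomial test 3013 and 698. Of called genes 86.2% were higher, against 70.4%, 42.9%, 52.5% and 53.2% under the first 4 of these. Total counts, TMM and the upper quartile shift log2 ratios by about -0.30, -0.53 and -0.64. Across the scalings, pseudocount 5 and summed rows the log2 ratio ranged from 2.04 to 2.66 for Nr1d1, 1.79 to 2.40 for Cry2, 0.70 to 1.32 for Nr1d2, 0.13 to 0.76 for Clock, -0.68 to -0.04 for Cry1 and -1.31 to -0.58 for Per2. None of these changed sign, and Arntl, at 3 reads and 2 reads, went from 0.21 to -0.30. The difference of medians, activator-phase minus repressor-phase, was -0.56, -1.50 with Cry1 counted as activator-phase, -0.11 from pooled reads, -0.06 for the wider sets and 0.52 with no filter. Repressor-phase reads per activator-phase read gave 1.08, and 2.81 with Cry1 counted as activator-phase. Against Arntl alone single genes gave 0.435 (Per2), 0 (Per3), 4.59 (Cry2), 0 (Dbp), 5.09 (Nr1d1) and 1.96 (Nr1d2), each with an interval that includes 1, since Arntl had 3 reads and 2 reads. Causes were not tested.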
